A study of Glycine max with 12 samples.

Results

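Soybean clones for 4 enzymes of fatty acid synthesis and desaturation were followed in leaves under osmotic stress and under stress of the endoplasmic reticulum (ER). The clones were all spots that the platform's table of probes and genes names FAD2-3, FAD3A, ACPD or ACCC-3, which gave 7 of the 253 spots with a single gene symbol and of the 5760 spots on the array. There were 2 clones each for FAD2-3, FAD3A and ACPD and 1 for ACCC-3, and each clone is called here by its EST accession. All 4 symbols were matched by gene ID to the same symbols in RefSeq.

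The aerial parts of 3-week-old soybean plants of the cultivar Dare were cut and set in the solutions, and treated and control RNA of the first trifoliate leaves was hybridized together to cDNA arrays in 2 colours. Polyethylene glycol (PEG), which withdraws water from the cells, was given at 10% (w/v) for 16 h and L-azetidine-2-carboxylic acid (AZC), a proline analog that makes proteins misfold, at 50 mM for 16 h, both against water. The TUN plants received tunicamycin, an inhibitor of N-glycosylation, at 10 μg/ml, with DMSO plants as controls, and were harvested after 24 h. Each treatment had 2 independent biological replicates, each hybridized in both dye orientations, so that every clone had 12 hybridizations and, where no spot was left out, 6 replicate values. All plants, controls included, had been excised, and the cDNA fragments on the slides came from libraries of developing seeds, not of leaves.

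Plant fatty acids are built in the plastid. Acetyl-CoA carboxylase makes malonyl-CoA in the first committed step, and ACCC-3 encodes the biotin carboxylase subunit of its plastid form. ACPD encodes a stearoyl-acyl carrier protein desaturase, the soluble plastid enzyme that places the first double bond and yields oleate. In the ER membrane, FAD2 enzymes, such as FAD2-3, turn oleate into linoleate, and FAD3 enzymes, such as FAD3A, turn linoleate into linolenate. Linoleate and linolenate are also the substrates of lipoxygenases.

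Of the 4 clones of the ER desaturases, 3 fell under both PEG and AZC, and 1 of these, for FAD3A, also fell under TUN. The other FAD3A clone was not called under AZC or TUN and was not tested under PEG. With limma fitted across all tested clones and a Benjamini-Hochberg adjusted p under 0.05 as the call, 4 of the 5 tested member clones were lower under PEG, against 7.02% of all tested clones. Under AZC 4 of 7 were lower, against 5.12% of all, and under TUN 1 of 6 was lower, against 2.75% of all. No member clone was called higher under any treatment, also at an unadjusted p under 0.05, while 4.58% of all tested clones were called higher under PEG, 3.98% under AZC and 4.51% under TUN. The median log2 ratio of treated over control over the tested members was -0.83 for PEG, -1.03 for AZC and 0.06 for TUN, while the median over all tested clones was 0.01, 0.01 and -0.01. The members had been chosen with earlier results of these data known, so their counts are a description.

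The direction of the PEG ratios rests on a decision about the files. The scanner files of the 2 hybridizations of PEG replicate 1 were used exchanged, because as listed they ran opposite to PEG replicate 2 (r over spots from -0.75 to -0.43) and to the authors' ratios of the same hybridizations (-0.50 and -0.48), whereas exchanged they matched those ratios at 0.977 and 0.979. With the files as listed no member was called under any treatment, and few clones of the whole array were. Over all tested clones that setting called 0 lower and 0 higher of 4345 under PEG. It called 16 lower and 49 higher of 5023 under AZC, and 1 lower and 18 higher of 4905 under TUN. The AZC and TUN ratios themselves were the same in that setting, but the fit shares its spread over the treatments. The files of PEG replicate 2, used as listed, matched the authors' ratios at 0.953 and 0.969. In them PM30, which the study used as a drought-induced control gene, had log2 ratios of 5.66 and 5.51, and in the exchanged files of replicate 1 it had 3.43 and 4.57. In leaves, fewer cells of a type and less RNA per cell cannot be told apart. A spotted cDNA fragment can also bind transcripts of close relatives of its gene, so a value may hold more than 1 gene of a family.

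**Figure D1:**
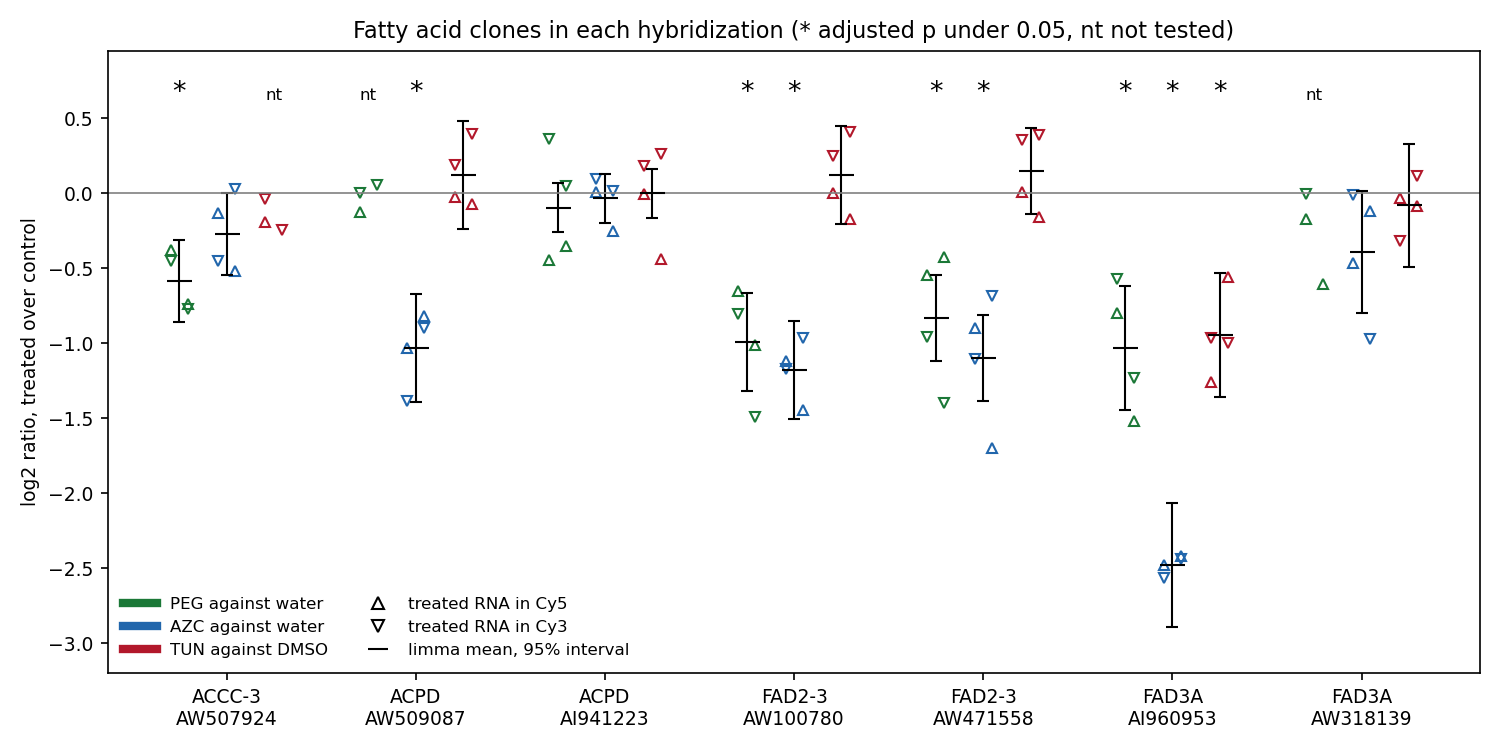
Log2 ratio of treated over control (vertical axis) for the 7 clones under PEG, AZC and TUN, with a triangle for each hybridization (replicate 1 left, replicate 2 right), a black bar for the limma mean and its 95% interval, stars for adjusted p under 0.05 and "nt" where a replicate lacked a usable dye-swap pair. The single PEG replicate 2 triangle of AW318139 was not above background in either channel. The FAD3A clone AI960953 lay below 0 in 12 of 12 hybridizations, and both FAD2-3 clones lay below 0 in all 8 hybridizations of PEG and AZC.

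At the entry of the pathway, ACCC-3 clone AW507924 was lower under PEG. Its log2 ratios were -0.42 and -0.75 in the 2 PEG replicates, which gave a mean of -0.58 with a limma standard error (SE) of 0.12 (n = 2), a 1.5-fold fall (limma, adjusted p = 0.0140). Here and below, SEs and 95% intervals of ratios use a spread that limma shares over all treatments and adjusts by other clones. They do not measure the spread of the 2 replicates named. All 4 PEG hybridizations were below 0, between -0.77 and -0.38. Under AZC the ratios were -0.29 and -0.25, and the mean of -0.27 was not called (95% interval -0.54 to 0.00, limma adjusted p = 0.261). The difference of PEG from AZC, -0.31 on the log2 scale with an interval of -0.70 to 0.07, did not pass either (limma adjusted p = 0.434), so that the ACCC-3 change under PEG is not shown to differ from the value under AZC. Under TUN this clone was not tested, because its spot was marked by the scanner software in replicate 2 with the treated RNA in Cy5. The other 3 TUN hybridizations read -0.19, -0.04 and -0.25. Without PEG replicate 2 the PEG value was -0.42 and its call was lost (limma adjusted p = 0.228), as it was without the intensity trend in the variances (adjusted p = 0.0585).

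The 2 ACPD clones gave different pictures. Clone AW509087 fell under AZC, with log2 ratios of -1.21 and -0.86 in the 2 replicates and a mean of -1.03 (SE 0.16, n = 2), a 2.05-fold fall (limma, adjusted p = 0.0036). Its 4 AZC hybridizations, dye swaps of 2 replicates, lay between -1.38 and -0.82, and its 4 TUN hybridizations, likewise, between -0.07 and 0.40. The TUN mean of 0.12 was not called (interval -0.24 to 0.48), and the difference of AZC from TUN was -1.16 (limma, adjusted p = 0.0397). Under PEG a marked spot left 3 hybridizations, between -0.13 and 0.05, and the clone was not tested. The AZC call rested on AZC replicate 1, without which the value was -0.86 with a limma adjusted p of 0.142.

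Clone AI941223, under the same symbol, was not called under any treatment, although with each array centred on its median in place of loess its AZC value was 0.34 and was called higher (limma adjusted p = 0.0479). That setting called 710 of 5023 clones higher under AZC, against 200 of 5023 with loess. The replicate log2 ratios of AI941223 were -0.04 and -0.15 under PEG, 0.05 and -0.12 under AZC, and 0.09 and -0.09 under TUN. The means of -0.10, -0.03 and 0.00 (SE 0.07 each) were not called, and the 95% limit farthest from 0 was -0.26, for PEG. Its PEG value ran from -0.44 to 0.24 over the alternatives tried, and none of these was called. This was the brightest of the 7 clones on these arrays. Its median signal over the local background was 55.4 in PEG leaves, against 59.6 in their water controls, 73.9 in AZC leaves, against 54.9 in theirs, and 116 in TUN leaves, against 102 in DMSO leaves. For AW509087 the same medians were 5.53 in PEG leaves, against 7.21 in water leaves, 4.60 in AZC leaves, against 6.32, and 5.94 in TUN leaves, against 5.01 in DMSO leaves. These brightness values describe the spots and do not rank the transcripts, since the fragments differ.

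Set side by side in each replicate, the ACPD clones parted in AZC leaves. AI941223 minus AW509087 was 1.26 and 0.74 in the 2 AZC replicates and between -0.25 and 0.02 in the other 3 replicates with a value for both. The mean difference was 0.36 with a standard deviation (SD) of 0.63 over 5 replicates. An exact two-sided sign-flip permutation test over these replicates gave p = 0.3125, where 5 replicates cannot give less than 0.0625, and p = 0.3125 after adjustment over the 3 pairs of clones compared.

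**Figure D2:**
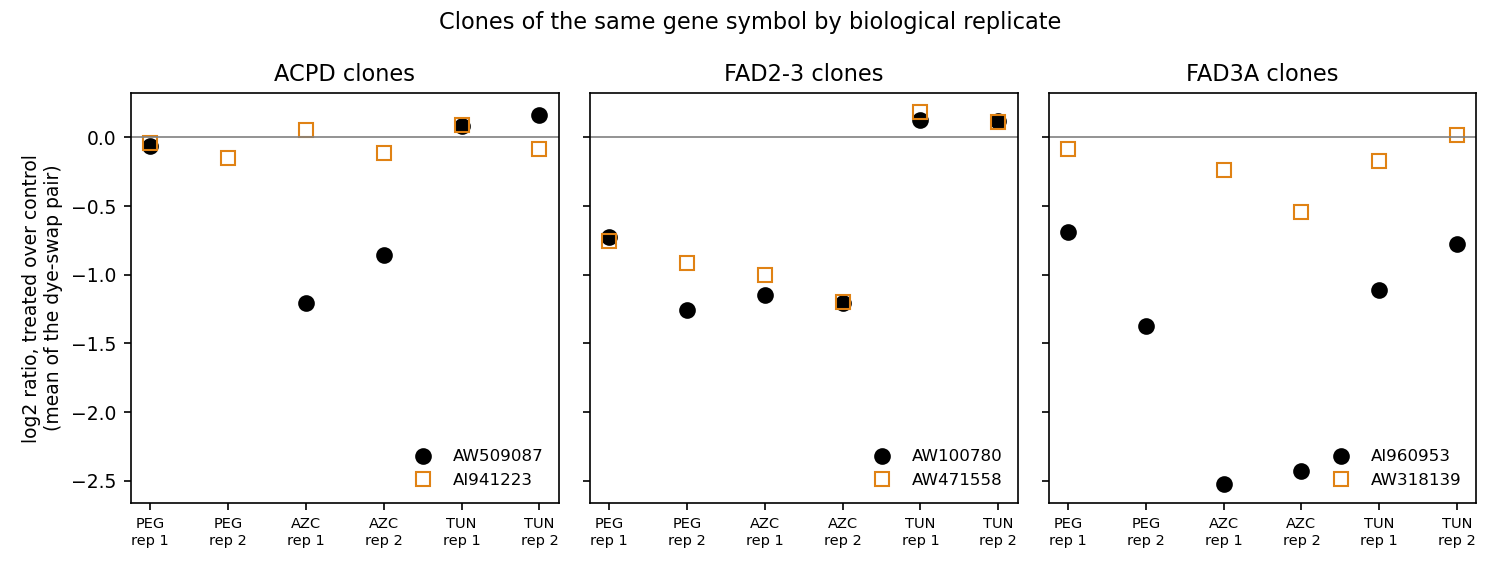
Log2 ratio of treated over control (vertical axis, mean of the dye-swap pair) in each biological replicate of PEG, AZC and TUN for the 2 clones of ACPD, FAD2-3 and FAD3A, with no point where a spot was marked. The FAD2-3 clones lay within 0.34 of each other in every replicate, while AI960953 minus AW318139 ran from -2.28 to -0.60.

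FAD2-3 was represented by clones AW100780 and AW471558, and both fell under PEG and AZC, while neither was called under TUN. AW100780 had replicate log2 ratios of -0.73 and -1.25 under PEG, with a mean of -0.99 (SE 0.14, n = 2), a 1.99-fold fall (limma, adjusted p = 0.0018). Under AZC its ratios were -1.15 and -1.21, with a mean of -1.18 and a 2.26-fold fall (limma, adjusted p = 5.8e-04). The single hybridizations ran from -1.49 to -0.65 under PEG, from -1.45 to -0.96 under AZC and from -0.17 to 0.41 under TUN. Under TUN both replicates read 0.12, and the mean of 0.12 was not called (interval -0.20 to 0.45, limma adjusted p = 0.771).

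The foreground intensities, before normalization, show the same clone as the scanner saw it. In AZC replicate 1, AW100780 read 829 units in the AZC channel against 1779 in the water channel with the treated RNA in Cy5, and 761 against 1222 with the dyes swapped. In TUN replicate 1 it read 3314 in the TUN channel against 2060 in the DMSO channel, and 3046 against 1993 after the swap. After background correction and loess these TUN values became log2 ratios of 0.00 and 0.25.

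Clone AW471558 had replicate log2 ratios of -0.75 and -0.91 under PEG, with a mean of -0.83 (SE 0.13, n = 2), a 1.78-fold fall (limma, adjusted p = 0.0024). Under AZC the ratios were -1.001 and -1.19, with a mean of -1.10 and a 2.14-fold fall (limma, adjusted p = 4.1e-04). Under TUN they were 0.18 and 0.11, with a mean of 0.15 that was not called (interval -0.14 to 0.44, limma adjusted p = 0.665). The dye orientations of this clone differed under PEG. With the treated RNA in Cy5 the PEG ratios were -0.54 and -0.43, and with it in Cy3 they were -0.96 and -1.40. From the Cy5 hybridizations alone the PEG value was -0.49 and was not called (limma adjusted p = 0.184).

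The FAD2-3 clones followed each other closely. AW100780 minus AW471558 averaged -0.09 (SD 0.14, n = 6 replicates), with a range of -0.34 to 0.02. The exact two-sided sign-flip permutation test gave p = 0.1875 (0.28125 after adjustment over the 3 pairs), where 6 replicates cannot give less than 0.03125. Their root mean square difference over the 6 values was 0.15, against 0.66 for the ACPD clones and 1.46 for the FAD3A clones over 5 values each.

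The response of FAD2-3 to PEG and AZC differed from that to TUN. PEG minus TUN was -1.11 for AW100780 and -0.98 for AW471558 (limma, adjusted p = 0.0128 and 0.0129). AZC minus TUN was -1.30 for AW100780 and -1.25 for AW471558 (limma, adjusted p = 0.0114 and 0.0075). PEG minus AZC was 0.19 with an interval of -0.28 to 0.65 for the first clone and 0.27 with an interval of -0.14 to 0.67 for the second, and neither passed. TUN leaves were harvested at 24 h and had a DMSO control, while PEG and AZC leaves were harvested at 16 h and had water controls, so agent, time and solvent cannot be told apart in the comparisons with TUN. Whether PEG and AZC used the same water plants is not stated in the labels.

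FAD3A clone AI960953 showed the lowest ratios of the 7 clones. Under AZC its replicate log2 ratios were -2.52 and -2.43, and the mean of -2.48 (SE 0.18, n = 2) was a 5.56-fold fall (limma, adjusted p = 1.9e-05). The 4 AZC hybridizations lay between -2.57 and -2.42, and the foreground intensity was 572, 650, 301 and 466 units in the AZC channels against 2188, 1914, 799 and 1198 in the water channels of the same spots. The AZC channel was dimmer than its water channel in all 4, in both dyes. Without a background correction the AZC value was -1.49 and stayed called (limma adjusted p = 8.9e-05).

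Under PEG the replicate ratios of AI960953 were -0.69 and -1.38, with a mean of -1.03 and a 2.04-fold fall (limma, adjusted p = 0.0053). Under TUN they were -1.11 and -0.78, with a mean of -0.94 and a 1.92-fold fall (limma, adjusted p = 0.0125). The PEG hybridizations ran from -1.52 to -0.57 and the TUN hybridizations from -1.26 to -0.56, so these groups overlapped each other. AZC minus TUN was -1.53 (limma, adjusted p = 0.0173) and PEG minus AZC was 1.45 (limma, adjusted p = 0.0097), which means a smaller fall under PEG than under AZC. PEG minus TUN was -0.09 with an interval of -0.67 to 0.50. The TUN call was lost without TUN replicate 1, when the value was -0.78 (limma adjusted p = 0.146), and the PEG call without PEG replicate 2, when it was -0.69 (adjusted p = 0.183).

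The other FAD3A clone, AW318139, was not called under any treatment. Its replicate ratios under AZC were -0.24 and -0.54, with a mean of -0.39 (interval -0.80 to 0.02, limma adjusted p = 0.278), and its 4 AZC hybridizations were spread from -0.97 to -0.01. Under TUN the ratios were -0.17 and 0.01, with a mean of -0.08. Under PEG replicate 1 gave -0.09, and the clone was not tested because 1 spot of replicate 2 was marked. In the remaining hybridization of that replicate neither channel of the spot was above background, so its ratio is not given. With each array centred on its median in place of loess, the AZC value was -0.68 and was called (limma adjusted p = 0.0340). That setting called 618 of 5023 clones lower under AZC, against 257 of 5023 with loess.

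The FAD3A clones thus differed although the platform's table gives them the same gene. AI960953 minus AW318139 was -0.60 in PEG replicate 1, -2.28 and -1.88 in the AZC replicates, and -0.94 and -0.79 in the TUN replicates. The mean was -1.30 (SD 0.74, n = 5 replicates), and AI960953 was the lower clone in 5 of 5. The exact two-sided sign-flip permutation test gave p = 0.0625, the smallest that 5 replicates allow, and 0.1875 after adjustment over the 3 pairs. The median signal over background was 3.29 in AZC leaves, against 9.94 in water leaves, for AI960953, and 3.61 in AZC leaves, against 4.18 in water leaves, for AW318139. The sequences of the cDNA fragments were not used here, and whether they bind the same transcripts was not tested.

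**Figure D3:**
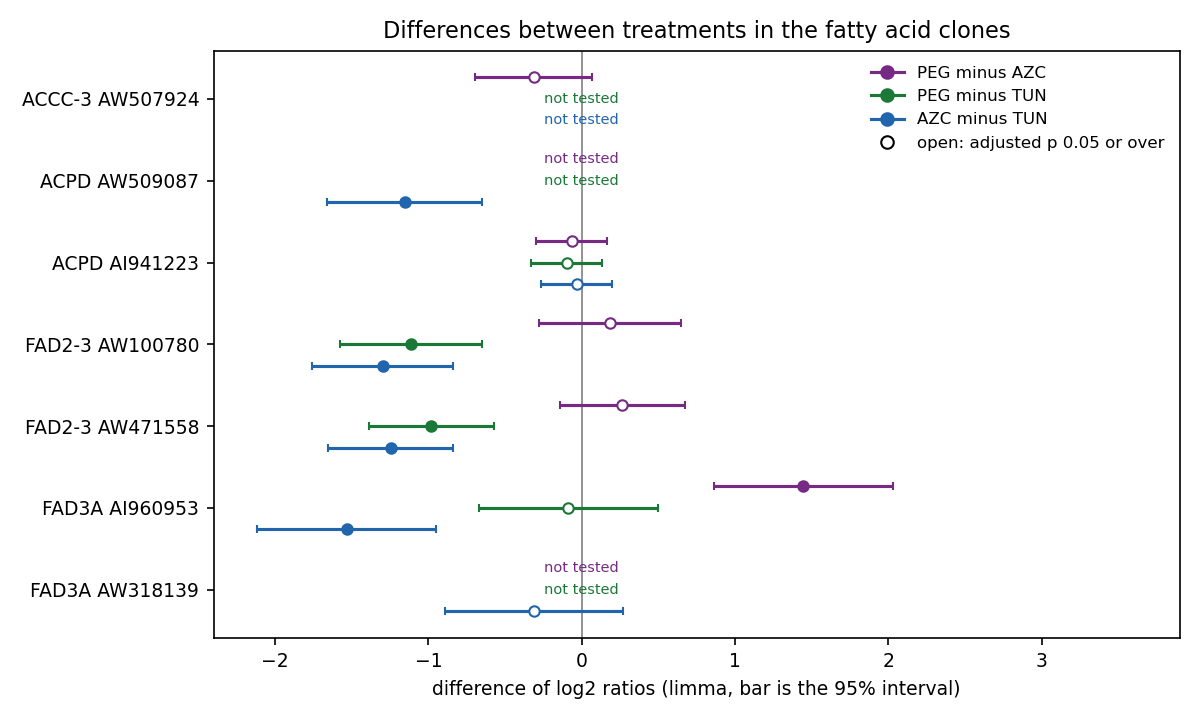
Difference between treatments of the log2 ratios of treated over control (horizontal axis, point with 95% interval from limma) for the 7 clones, filled where the adjusted p was under 0.05. All filled points of AZC minus TUN and PEG minus TUN lie below 0, between -1.53 and -0.98, and the filled point of PEG minus AZC, 1.45, belongs to FAD3A clone AI960953.

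Over all clones testable for these differences, 5.96% were called for PEG minus AZC, 5.61% for PEG minus TUN and 2.08% for AZC minus TUN. Among the members the calls were 1, 2 and 4 clones, given above. Leaving out AZC replicate 1 or AZC replicate 2 removed all 4 calls for AZC minus TUN, and both calls for PEG minus TUN were lost without PEG replicate 2.

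The PEG calls of the single clones also depended on replicate 2. In that replicate the 3 ER desaturase clones with a value, and ACCC-3, had lower ratios than in replicate 1. Without it a single PEG value per clone remained, and the calls of these clones were lost. These values were -0.73 and -0.75 for FAD2-3, -0.69 for FAD3A clone AI960953 and -0.42 for ACCC-3. A smaller share of all clones on the array was called lower too, so the loss was not particular to the members. When the treated RNA of PEG replicate 2 carried Cy5, 44.7% of the treated spots were above the local background plus 2 of its SDs, against 97.2% or more for the treated RNA in the other hybridizations. It was also the only hybridization quantified by the Adaptive Circle method, while all others used the Histogram method. Weak signal and the method of quantification thus cannot be told apart in this share. In this hybridization the treated channel of FAD2-3 clone AW471558 and of FAD3A clone AI960953 was not above background. Without this hybridization 4 members were still called lower under PEG.

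**Figure D4:**
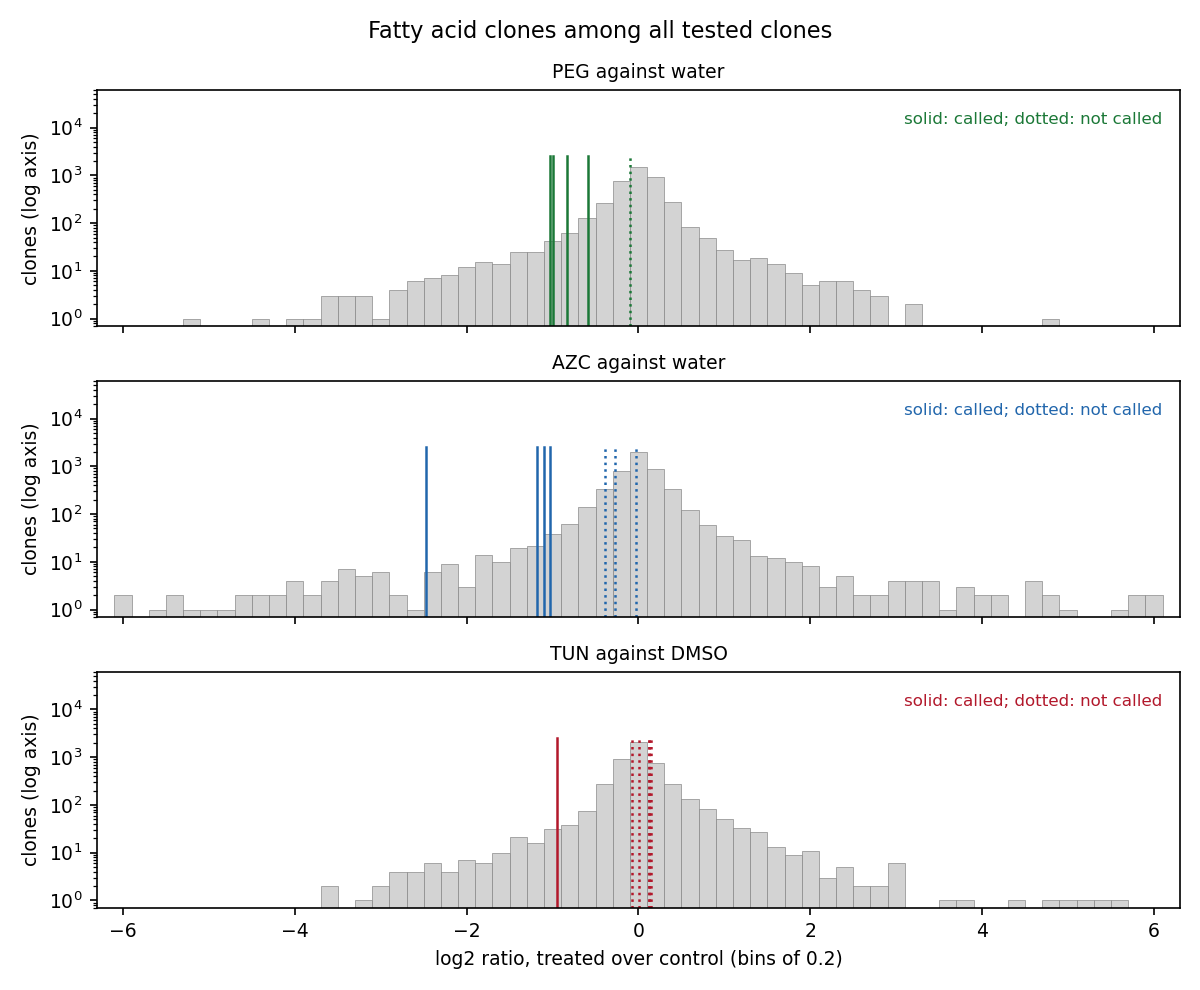
Number of clones (vertical axis, log scale) by limma log2 ratio of treated over control (horizontal axis, bins of 0.2, the outermost bins also holding any clones beyond them) for all clones tested under PEG, AZC and TUN, with a vertical line for each tested fatty acid clone, solid if called. The lowest line under AZC, at -2.48, is FAD3A clone AI960953, and all called lines lie left of 0.

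Among all tested clones, the called members lay in the lower tail. The share of tested clones with a log2 ratio as low as that of FAD3A clone AI960953, or lower, was 3.31% of 4345 under PEG, 0.956% of 5023 under AZC and 2.14% of 4905 under TUN. For the FAD2-3 clones this share was 3.54% and 4.33% under PEG and 2.31% and 2.55% under AZC, but 74.4% and 77.0% under TUN. It was 2.85% for ACPD clone AW509087 under AZC and 6.84% for ACCC-3 under PEG.

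The other named clones of fatty acid synthesis that were found by the start of their gene symbol were not called. They comprised ACCB-2, the biotin carboxyl carrier subunit of the same carboxylase, KASI, which elongates the acyl chain, and FAD2-1 and FAD2-1A, the omega-6 desaturases of the seed. Of these 5 spots, 2 could be tested under PEG, 4 under AZC and 4 under TUN, and 0 were called in either direction by limma. At an unadjusted p under 0.05 there was 1 under PEG, FAD2-1 clone AW460032, at 0.21, and 1 under TUN, KASI, with ratios of 0.43 and 0.55 and a mean of 0.49 (limma adjusted p = 0.282). The median of the tested clones was 0.30 for PEG, -0.05 for AZC and 0.06 for TUN. Gene titles were not searched, so clones of the pathway under other symbols are not in this list. The study reports a palmitoyl-acyl carrier protein thioesterase clone, outside this list, as repressed by all its treatments. It reports the same for the member AI960953, which it annotates as a microsomal omega-3 fatty acid desaturase. Its fold changes for AI960953 were smaller than those given here under each treatment.

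The lipoxygenases use the products of FAD2 and FAD3 as substrates. Of 8 spots (LOX1.1, LOX2, LOX3 and LOXB1), 7 were tested under PEG, 8 under AZC and 5 under TUN. None was called lower (1 was below 0 at an unadjusted limma p under 0.05, LOX1.1 clone AI748749 under PEG, at -0.36), and 1 was called higher under each treatment. This was in each case LOX1.1 clone AW508203, named here after its values were seen, with log2 ratios of 0.55 and 0.61 under PEG, 2.57 and 2.004 under AZC, and 3.17 and 2.996 under TUN. The PEG value of 0.61 joined 1.31 with the treated RNA in Cy5 and -0.08 with it in Cy3. With Cy5 the PEG channel read 23772 units and the water channel 25867, with 16.7% of pixels saturated in each. After the swap they read 1674 and 906 units. The PEG call of this clone without that Cy5 spot was not examined. LOX2 clone AI748668 was above 0 at an unadjusted limma p under 0.05 under PEG (0.52, adjusted p = 0.0935) and AZC (0.46, adjusted p = 0.166) and was not called. The other LOX1.1 clones, AI748749 and AW509088, were not called under any treatment in which they were tested.

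Some named clones of other genes had a profile close to that of a desaturase, by the root mean square difference of the 6 replicate ratios. The nearest to FAD2-3 among 157 named clones were LOC547761 (0.36 from AW100780 and 0.29 from AW471558) and LOC547884 (0.39 from each). Next came SODB, an iron superoxide dismutase, at 0.45 from AW100780 and MYBZ2, a MYB transcription factor, at 0.44 from AW471558. No clone came as close to FAD3A clone AI960953. Its nearest of 158 were LOC100037476, annotated in the study as a granule-bound starch synthase, at 0.64, F3H, the flavanone 3-hydroxylase of flavonoid synthesis, at 0.66, and MIPS, which makes myo-inositol phosphate, at 0.68. Under AZC these 3 had log2 ratios of -1.56, -2.08 and -1.42. The neighbours of ACPD clone AI941223 (LOC778089, GY3 and GRP, at 0.08 to 0.09) were clones with ratios near 0.

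As a check of the inducers, the BiP clone AW509482, an ER chaperone, had log2 ratios of -1.53 under PEG, 5.77 under AZC and 5.66 under TUN, and calnexin AW508066 had -1.28, 5.06 and 5.04. For the leaf's photosynthetic apparatus the 253 named spots were searched by the start of the symbol only (LHC, CAB, PSA, PSB, RBCS or RCA). This found 1 spot, PSAD of photosystem I, which averaged 0.38 under PEG (limma adjusted p = 0.0627) and 0.09 under TUN and was not tested under AZC. This clone does not stand for its class, whose other clones were not analysed here. Of 18 spots for genes known from maturing seeds, 5 of 14 tested were called higher and 1 lower under PEG, 1 higher and 1 lower of 14 under AZC, and 0 of 15 under TUN, where 2 had an unadjusted limma p under 0.05. The part of cell composition in the desaturase values was not tested. Over all clones the 2 replicates correlated at r = 0.816 for PEG, 0.874 for AZC and 0.681 for TUN.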

How the data were processed

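The deposited scanner files hold foreground and local background intensity in Cy3 and Cy5 for 5760 spots, and percent of saturated pixels. The authors' table holds their LOWESS-normalized log2 ratios, used as an alternative. The study's methods name QuantArray for the image analysis, whereas the file headers name ScanArray Express. Background was corrected by normexp (offset 50), arrays were normalized by loess, and spots marked 1 or 4 by the scanner software, whose meaning the files do not give, were left out (25 to 979 per hybridization). Ratios were turned to treated over control by the labelled dyes, and the 2 hybridizations of a biological replicate, which hold the same extracts, were averaged, both being required. The files of PEG replicate 1 were exchanged after their correlations had been seen. The filter on dim spots (above background plus 2 SDs in 3 of 4 hybridizations of an RNA group) passed 5760 of 5760 spots, and 4345 clones were tested for PEG, 5023 for AZC and 4905 for TUN.

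limma 3.58.1 in R 4.3.3 fitted 1 coefficient per treatment to up to 6 values per clone, with an intensity trend and a Benjamini-Hochberg threshold of 0.05 over all tested clones. All treatments shared 1 estimate of the spread of a clone. With 2 replicates per treatment the precision is limited by the number of arrays. Clones of a symbol were compared by exact sign-flip tests.

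Named clones are all members, called clones of the pathway list, the 3 named clones nearest to each member with 6 values, and the BiP and calnexin checks. KASI, FAD2-1, LOX1.1, PSAD and their lists are named outside that rule. Members and lists were chosen with earlier results of these data known. Alternatives covered background, normalization, filter, marked spots, trend, dye, quantification day, replicate block, separate fits, the methods' t-test, the files as listed and leaving out each replicate. Clone sequences and genome positions are not used here.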

Additional observations from a re-analysis of the deposited data

Results flagged for a closer look

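The following differences between treatments in the log2 ratio of treated over control passed limma's test of the difference itself. FAD2-3 clone AW100780 had PEG minus TUN of -1.11 and AZC minus TUN of -1.30. FAD2-3 clone AW471558 had PEG minus TUN of -0.98 and AZC minus TUN of -1.25. FAD3A clone AI960953 had PEG minus AZC of 1.45 and AZC minus TUN of -1.53. ACPD clone AW509087 had AZC minus TUN of -1.16. Of the 18 groups of 4 hybridizations with a value for every one, 0 held a hybridization that stood apart by Dixon's 95% criterion, where chance alone marks about 1 group in 20.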

How the results depend on the processing

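The log2 ratios of the 9 member calls kept their sign under all alternatives run. The call of FAD3A clone AI960953 under AZC was lost only with the files of PEG replicate 1 as listed (limma adjusted p = 0.0947). Under that setting the members called lower were 0 for PEG, 0 for AZC and 0 for TUN, and called differences were 0, 0 and 0. Over all tested clones it called 0 of 4345 lower under PEG, 16 of 5023 under AZC and 1 of 4905 under TUN. It left the AZC and TUN ratios unaltered, but changed the shared spread and with it their calls. With each treatment fitted by itself and the files exchanged, 4 members were called lower under PEG, 4 under AZC and 1 under TUN. Otherwise the cause of the changes listed was not tested, though some alternatives use fewer hybridizations. Several also changed the number of calls over all clones, so a changed member count is not by itself a trait of the members.

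Counts of members called lower under PEG were 2 from the Cy5 orientation alone and 0 by the methods' t-test with Benjamini-Hochberg adjusted p-values. Over all clones these settings called 260 of 5140 and 4 of 4345 lower. The 4 hybridizations of the second quantification day held only replicate 1 of PEG, so their PEG count is not given. Under AZC the t-test called 2 members and 88 of 5023 clones lower. Under TUN the count was 0 with plain background subtraction, from the Cy5 orientation alone and by the t-test. Over all clones these called 112 of 4905, 129 of 5222 and 1 of 4905 lower under TUN. Median centring called 1 member higher under AZC, ACPD clone AI941223, which reversed to 0.34 (limma adjusted p = 0.0479). Over all clones it called 710 of 5023 higher and 618 lower under AZC.

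For PEG minus AZC the count of called members was 2 with marked spots kept, with a dye term, with the quantification day as a block and where 1 orientation sufficed, and 0 with plain subtraction and from the Cy5 orientation alone. For PEG minus TUN it was 0 without the Cy5 hybridization of PEG replicate 2, from the Cy5 orientation alone and within the second day. For AZC minus TUN it was 1 with plain subtraction, 2 without background correction, 1 without the intensity trend, 2 within the second day, and 0 without the Cy5 hybridization of PEG replicate 2 and from either orientation alone. All 6 hybridizations with the treated RNA in Cy3 share 1 quantification day, so the Cy3 orientation alone is also that day's comparison. The 1-orientation and second-day settings were chosen after seeing the data.

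Leaving out each replicate in turn gave 0 to 4 members called lower under PEG, 3 to 4 under AZC and 0 to 1 under TUN, and 0 to 1 called for PEG minus AZC, 0 to 2 for PEG minus TUN and 0 to 3 for AZC minus TUN. The main fit did not pair same-numbered replicates. Deviations of same-numbered samples correlated at -0.07 for PEG with AZC, -0.06 for PEG with TUN and 0.14 for AZC with TUN. This cannot show whether such samples were handled together. A fit with the replicate block called 4 members lower under PEG, 4 under AZC and 1 under TUN, and 1, 2 and 4 for the differences in the order above. Outside ACPD clone AI941223, the median signal over background of the 6 clones was between 3.29 and 19.7 in both channels, which limits the precision of their ratios.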
